A study of Solanum tuberosum with 12 samples.

Results

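Cryopreserved potato shoot tips that recovered under cool white fluorescent light were compared with shoot tips that were never frozen and were kept under the same light. The comparison uses 6 of the 12 RNA sequencing libraries of the study, 3 of cryopreserved and 3 of non-cryopreserved tips, chosen by their labelled group alone. All tips were Solanum tuberosum of the genotype Agrie Dzeltenie, taken from in vitro plants aged 3.5 weeks, and each library was a biological replicate made from 10 pooled shoot tips. Both groups received 16 h of cool white light at 40 µmol per square metre per second before collection. The cryopreserved tips had been treated for 2 h with 10% dimethyl sulfoxide (DMSO) and 30% sucrose, frozen in droplets, held for 1 h in liquid nitrogen and rewarmed in liquid medium over 1.5 h. They then spent 48 h in darkness on regeneration medium with sucrose at 30 g per litre. Its hormones, in mg per litre, were zeatin riboside at 0.5, gibberellic acid at 0.2 and indole acetic acid at 0.5. The remaining 6 libraries came from tips frozen in the same way and recovered under red and blue light-emitting diodes (LEDs) or in continued darkness. They entered the model fit and are used here only for side-by-side values.

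Plant cryopreservation stores living tissue in liquid nitrogen, where metabolism stops. A shoot tip holds the apical meristem, whose dividing cells can rebuild a plant, together with leaf primordia and differentiated tissue around it. DMSO and concentrated sucrose dehydrate the cells and limit the growth of ice crystals, and thawed tissue is known to face osmotic, oxidative and wounding stress before growth resumes. Cytokinins such as zeatin riboside, auxins such as indole acetic acid and gibberellins are the hormones that regeneration media supply to restart shoot growth.

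The groups differ in more than freezing. The labels give 1 mm as the trimmed size of the non-cryopreserved tips and name the hormone medium and the dark period of 48 h for cryopreserved samples only, so freezing, cryoprotectant, medium, dark period and tip size cannot be told apart in this comparison. In pooled tips, fewer cells of a type and less RNA per cell cannot be told apart either. None of the 39027 gene identifiers in the count tables matched a name in the RefSeq gene table of potato, and no file pairs them with names. Genes are therefore described by the size, direction and level of their change, 2 genes that rose and 2 that fell are given by identifier, and the tissue label could not be checked against marker genes.

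Non-cryopreserved libraries held 6342324, 8140225 and 7682729 counted reads, and cryopreserved libraries 7537603, 7680222 and 8381673. Of all genes listed, 19920 had enough reads to be tested, and these held at least 99.8% of the reads of each of the 6 libraries. Levels are given in CPM, the read count scaled to the size of its library, with trimmed mean of M values (TMM) factors. Fold changes, their standard errors (SE) and adjusted p-values come from the quasi-likelihood test of edgeR, with p-values adjusted over all tested genes by the Benjamini-Hochberg method, and a gene was called when its adjusted p was under 0.05.

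About as many genes were called as were not. After cryopreservation 5534 genes rose, 27.8% of those tested, and 4289 genes fell, 21.5%, so that 49.3% were called. The median change was 1.91-fold among the genes that rose and 1.66-fold among those that fell. Across all tested genes the median log2 fold change was 0.05. The majority of rising genes depended on the scaling, since upper quartile factors gave 4783 higher and 5174 lower genes. No called gene was called in the opposite direction under any of the alternative settings tried.

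**Figure D1:**
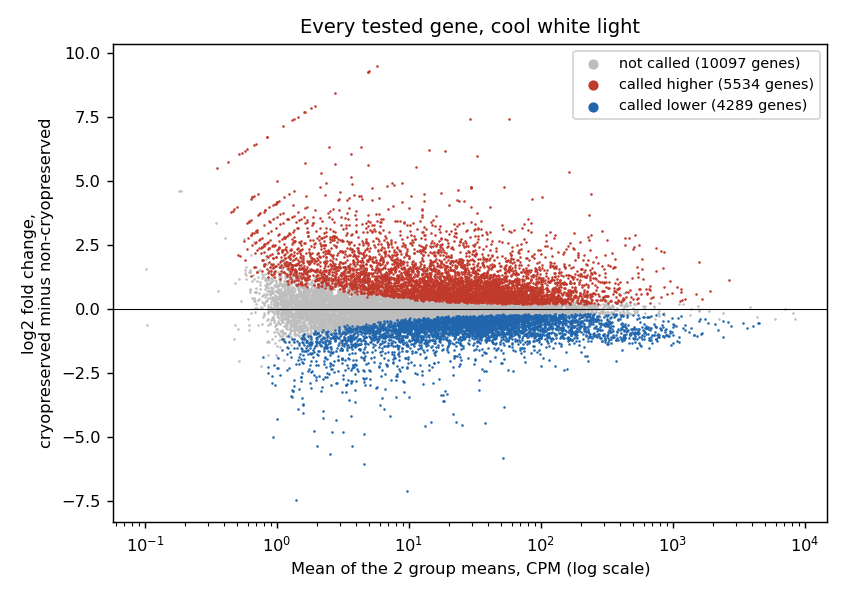
Each point is a tested gene, with its level on the horizontal axis (mean of both group means in CPM, log scale) and its log2 fold change, cryopreserved minus non-cryopreserved, on the vertical axis. Red marks the 5534 genes called higher, blue the 4289 called lower and grey the 10097 not called, and the red points reach further from 0 than the blue.

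The calls were also set beside the values of the single libraries. Of the called genes, 9609 had values that did not overlap between the 3 cryopreserved and 3 non-cryopreserved libraries, and 214 had values that did. Being called in the same libraries nearly fixes this, so it adds no support to the calls. Over all tested genes, 59.9% did not overlap, of which 6576 were higher in every cryopreserved library and 5356 lower. For 1346 genes the lowest cryopreserved library was at least 2-fold above the highest non-cryopreserved library, and for 424 genes the highest cryopreserved library was at least 2-fold below the lowest non-cryopreserved library. A further 2323 genes did not overlap between the groups and were still not called.

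Large changes were mostly increases, while the balance of small changes depended on the scaling. With TMM, below 1.5-fold, 1523 genes rose and 1505 fell, and between 1.5-fold and 2-fold 1431 rose and 1565 fell. Between 2-fold and 4-fold the counts were 1752 and 999, between 4-fold and 8-fold 557 and 159, and between 8-fold and 16-fold 177 and 37. Together 2580 genes rose at least 2-fold, 13% of those tested, and 1219 fell at least 2-fold, 6.12%. Called changes under 2-fold numbered 2954 increases and 3070 decreases with TMM, 2501 and 3644 with upper quartile factors, and 3233 and 2715 when only library size was scaled for. The excess of at least 2-fold increases kept its direction under each scaling tried, with 2282 increases and 1530 decreases under upper quartile factors and 2761 and 1069 when libraries were scaled by size alone.

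**Figure D2:**
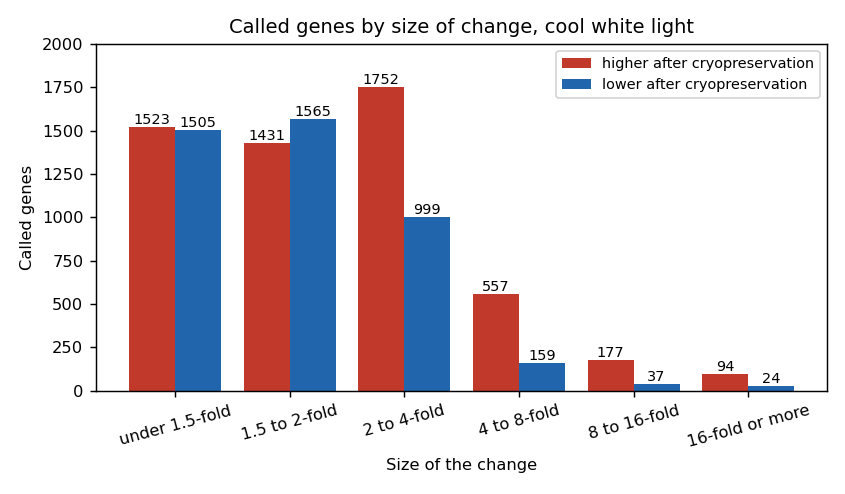
Bars give the number of called genes in each class of fold change, red for genes higher and blue for genes lower after cryopreservation under cool white light. From 2-fold upward the red bars are taller, for example 557 against 159 genes between 4-fold and 8-fold; under 2-fold the bars are nearly even with the TMM scaling shown, but 2501 against 3644 genes with upper quartile factors.

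The genes with the largest increases had low levels in tips that had not been frozen. A low level there is part of what places a gene in a class of large increases, and genes near 0 in that group passed the count filter through the libraries in which they are high. Among the genes that rose between 4-fold and 8-fold, the median level was 2.00 CPM in non-cryopreserved and 10.3 CPM in cryopreserved tips. Among the 177 that rose between 8-fold and 16-fold it went from 0.793 to 7.93 CPM. Genes that rose less than 1.5-fold had a median of 35.2 CPM before and 47.3 CPM after. The classes of falling genes mirror this only in part, since the 159 genes that fell between 4-fold and 8-fold had a median of 7.32 CPM without freezing and 1.31 CPM after it, and the 37 that fell between 8-fold and 16-fold a median of 7.11 and 0.622 CPM. All these levels describe classes formed on the same libraries and support nothing further.

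At 16-fold or more, 94 genes rose and 24 fell. Of the 94, 23 were without a read in the non-cryopreserved group, so their fitted change depends on the prior count of the model. Set against a floor of 3 reads over that group, which is 0.137 CPM, these 23 genes were between at least 5.18-fold and at least 84.1-fold higher, and 13 of them were at least 16-fold higher by that bound. The other 71 had reads in both groups. Of the 24 genes that fell this far, 1 was without a read after cryopreservation. All 94 and all 24 had libraries that did not overlap between the groups, against 59.9% of all tested genes. Being picked for so large a called change in the same libraries nearly fixes this, so it adds no support.

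A test against a minimum change picks out genes whose change clearly exceeded that minimum. A gene can fail it because its change was small or because it was measured imprecisely. With edgeR's test for a change greater than 1.5-fold, 2488 genes rose and 1400 fell, 19.5% of those tested. For 1271 genes the 95% interval of the fold change lay wholly above a 2-fold increase, and for 379 genes it lay wholly below a 2-fold decrease. At the other end, 899 genes were called although their whole interval lay within 1.5-fold in either direction.

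A gene that was not called is not thereby unchanged, and the intervals show how far the data bound it. Of the 10097 genes not called, 7577, or 75.0%, had a 95% interval that lay within 2-fold in either direction. The other 2520 had intervals too wide for that. Called or not, 11461 tested genes were bounded within 2-fold and 5736 within 1.5-fold. By this measure the difference between the groups was under 2-fold for 57.5% of the tested genes.

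Precision was similar down to rank 5000 and lower for less abundant genes. When tested genes were ranked by mean CPM over the 12 libraries, the median half-width of the 95% interval corresponded to a 1.17-fold change for the top 100 genes, a 1.16-fold change for the next 900, 1.17-fold for the next 4000, 1.22-fold for the next 5000 and 1.50-fold for the remaining 9920. In the same order 77%, 74%, 63.2%, 53.8% and 38.9% of the genes were called, against 49.3% overall. The median absolute log2 fold changes of these classes were, in turn, 0.63, 0.56, 0.37, 0.36 and 0.51. Down to rank 5000 the called share thus fell while the intervals hardly changed and the fold changes became smaller. The lowest share stands beside the widest intervals. With the libraries thinned to 6342324 reads each, it was 38.6%.

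Direction by level depended on how the level was taken. With ranks from all 12 libraries, of the 100 most abundant genes 50 fell and 27 rose, and of the next 900 41.2% fell and 32.8% rose. Below these, rising genes were more frequent, at 36.7% against 26.5% for the next 4000 genes and 22.4% against 16.6% for the 9920 least abundant. Ranks were also taken from the 6 LED and dark libraries. These come from frozen tips as well, in which the genes called higher and lower had median changes of the same sign, so this ranking places rising genes higher and falling genes lower by its construction. In it 38 of the top 100 genes fell and 38 rose, and of the next 900 37.2% fell and 37.6% rose. Among the next 4000 genes 39.0% rose and 24.4% fell. No direction at the top of the ranking is read from either.

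**Figure D3:**
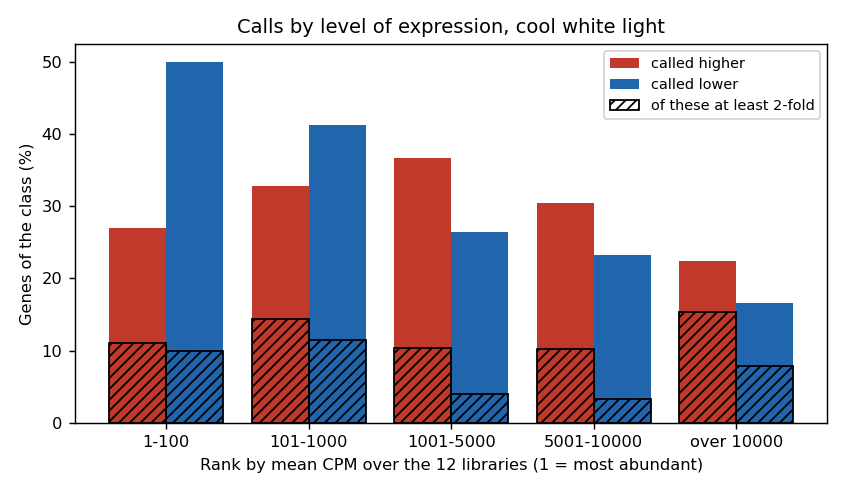
Bars give the share of tested genes called higher (red) and lower (blue) in classes of rank by mean CPM over the 12 libraries, with the hatched part at least 2-fold. The most abundant 100 genes show 27% higher and 50% lower, and the 9920 least abundant genes show 22.4% and 16.6%.

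The change in where reads went can be read from each library directly. The genes called higher held 18.2%, 19.6% and 18.2% of the reads in the non-cryopreserved libraries and 36.8%, 36.4% and 33.4% in the cryopreserved libraries. The genes called lower held 47.0%, 44.6% and 47.6% without cryopreservation and 27.9%, 28.4% and 30.5% after it. The 10097 genes not called kept between 34.0% and 35.9% of the reads in all 6 libraries. These shares describe genes chosen on the same libraries, and no test is given for them.

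The same shares were taken for genes with larger changes. Genes at least 2-fold higher went from 4.42% ± 0.209 to 13.9% ± 1.41 of the reads (SD, n = 3), and genes at least 4-fold higher from 0.616% ± 0.0595 to 3.81% ± 0.545 (SD, n = 3). Genes at least 2-fold lower went from 12.1% ± 0.792 to 5.43% ± 0.391 (SD, n = 3), and those at least 4-fold lower from 0.503% ± 0.0450 to 0.0949% ± 0.0249 (SD, n = 3).

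**Figure D4:**
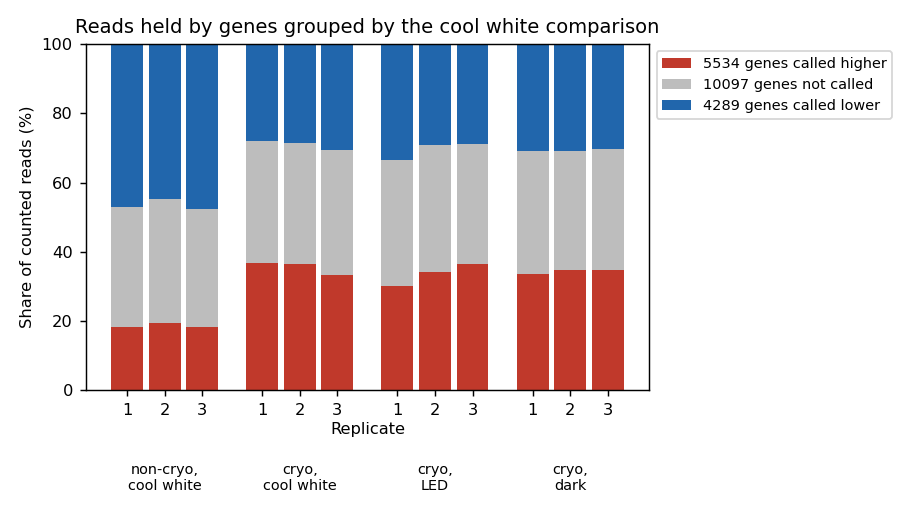
Each bar is a library, divided into the share of counted reads held by genes called higher (red), not called (grey) and called lower (blue) between the cool white groups; the genes were chosen on the first 6 bars. Red takes 18.2% to 19.6% in the non-cryopreserved libraries and 33.4% to 36.8% in the cryopreserved libraries under cool white light, while grey stays near 35%.

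Between the group means, 19.2% of all reads would have to be reassigned from some genes to others to turn the non-cryopreserved profile into the cryopreserved one. Many genes carried this shift. It took 690 genes to account for 50% of it, of which 317 were higher after cryopreservation and 671 had been called. Over all tested genes 49.3% were called. The 690 genes were picked for large differences between the same libraries, which favours calls, so their calls add no support. The 10 genes with the largest gains together gained 1.15 percentage points of the reads, and the 10 with the largest losses changed by -1.45 percentage points. At an equal depth of 6342324 reads, library pairs from different groups differed by 16.5% to 22.0% of their reads, pairs of non-cryopreserved libraries by 5.20% to 7.18% and pairs of cryopreserved libraries by 4.49% to 6.38%.

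Under cool white light, reads were spread over more genes in cryopreserved than in non-cryopreserved tips. The number of most abundant genes that together held 50% of the reads was 968, 1079 and 1032 in the non-cryopreserved libraries and 1364, 1340 and 1312 in the cryopreserved libraries. The groups did not overlap, and a two-sided exact permutation test gave p = 0.1, the smallest that 3 against 3 libraries allow. For 90% of the reads the means were 7917 ± 104 and 8482 ± 48.6 genes (SD, n = 3), with the same exact permutation p of 0.1. For 50% of the reads the numbers were 1245 ± 23.1 under LEDs and 1098 ± 52.7 in darkness (SD, n = 3). For 90% they were 8258 ± 52.0 under LEDs and 7797 ± 71.3 in darkness (SD, n = 3), so that the dark mean lay below that of the non-cryopreserved tips.

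The set of most abundant genes turned over as well. Of the top 100 genes of a library, 89 to 97 were shared by any pair of libraries within a group and 54 to 63 by pairs from different groups. Among the top 1000 the ranges were 925 to 955 within groups and 727 to 802 between them. The 100 most abundant genes of non-cryopreserved tips held 19.0% ± 0.861 of the reads there and 14.2% ± 0.493 after cryopreservation (SD, n = 3), and 76 of them fell while 7 rose. The 100 most abundant genes of cryopreserved tips held 16.3% ± 0.678 before and 16.1% ± 0.107 after (SD, n = 3), with 42 higher and 34 lower. Over all tested genes 21.5% were called lower and 27.8% higher. Ranking genes on the mean of a group favours genes that are high in that group. As these lists were drawn from the libraries compared, the counts describe them and do not test them.

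PGSC0003DMG400000776 gained the most reads of any gene called higher. Its level was 1490, 1861 and 1627 CPM in the non-cryopreserved libraries and 4265, 3776 and 2939 CPM in the cryopreserved libraries under cool white light. Every cryopreserved library lay above every non-cryopreserved library, which the choice of the gene required. The gene moved from rank 32 to rank 7 of all tested genes. The rise was 2.21-fold, with a 95% interval of the log2 fold change from 0.80 to 1.48 and an adjusted p of 5.24e-05 by edgeR. Under LEDs the same gene stood at 1675, 1875 and 1514 CPM and in darkness at 2266, 1543 and 2167 CPM. These ranges overlap that of the non-cryopreserved libraries and lie below all cool white libraries of frozen tips. Direct contrasts with cool white light gave a log2 difference of -1.12 (SE 0.16, adjusted p 0.00678 by edgeR) for LEDs and -0.88 (SE 0.16, adjusted p 0.00171 by edgeR) for darkness. The gene was chosen for its gain in the same cool white libraries, which favours high values there, so these differences may be overstated and are not independent of that choice.

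PGSC0003DMG401025083 was the other gene that gained most, chosen on the same libraries. It was at 722, 700 and 618 CPM without cryopreservation and at 2398, 2630 and 2349 CPM after it under cool white light. The groups did not overlap, as the choice required, and the gene rose from rank 173 to rank 13. By edgeR its log2 fold change was 1.86 (SE 0.21), or 3.62-fold, at an adjusted p of 9.85e-06. Here the frozen tips were high under every recovery condition, with 1387, 2538 and 3193 CPM under LEDs and 3992, 4199 and 4413 CPM in darkness. The dark libraries were above all cool white libraries, by a log2 difference of 0.77 (SE 0.20, adjusted p 0.0205 by edgeR), whereas the LED libraries spread on either side of them, with a log2 difference of -0.05 (95% interval -0.49 to 0.39, adjusted p 0.935 by edgeR).

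The genes that lost the most reads were among the most abundant of the shoot tip, and their identifiers are close in number. PGSC0003DMG400020772 was at 4602, 4534 and 4506 CPM in non-cryopreserved libraries and at 2502, 2743 and 2923 CPM in cryopreserved libraries under cool white light. PGSC0003DMG400020775 was at 4871, 4799 and 5103 CPM without cryopreservation and at 3064, 3111 and 3229 CPM after it. In both genes all cryopreserved libraries were below all non-cryopreserved libraries, which the choice of the genes required. They were chosen for their loss in these same libraries, so the falls may be overstated. The non-cryopreserved replicates lay close together. By edgeR the log2 fold changes were -0.74 (SE 0.09, adjusted p 1.88e-05) for PGSC0003DMG400020772, a 1.67-fold fall, and -0.65 (SE 0.09, adjusted p 3.93e-05) for PGSC0003DMG400020775, a 1.57-fold fall. Whether these genes share sequence is not known here, so their reads may have been split between them.

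The fall of both abundant genes had the same direction in every frozen group. Each group was set against the control libraries on which the genes were chosen, so this is not independent of that choice. PGSC0003DMG400020772 averaged 2912 ± 310.3 CPM with LEDs and 2911 ± 64.6 CPM without light (SD, n = 3). PGSC0003DMG400020775 averaged 3581 ± 389 CPM with LEDs and 3303 ± 134 CPM without light (SD, n = 3). Contrasts of LEDs and of darkness with cool white light gave no call for either gene, with adjusted p from 0.279 to 0.645 by edgeR. The log2 differences were 0.08 to 0.19, and their 95% intervals reached at most from -0.11 to 0.38. For PGSC0003DMG400020775 under LEDs the interval, 0.004 to 0.38, lay wholly on the positive side, at an adjusted p of 0.279 by edgeR.

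**Figure D5:**
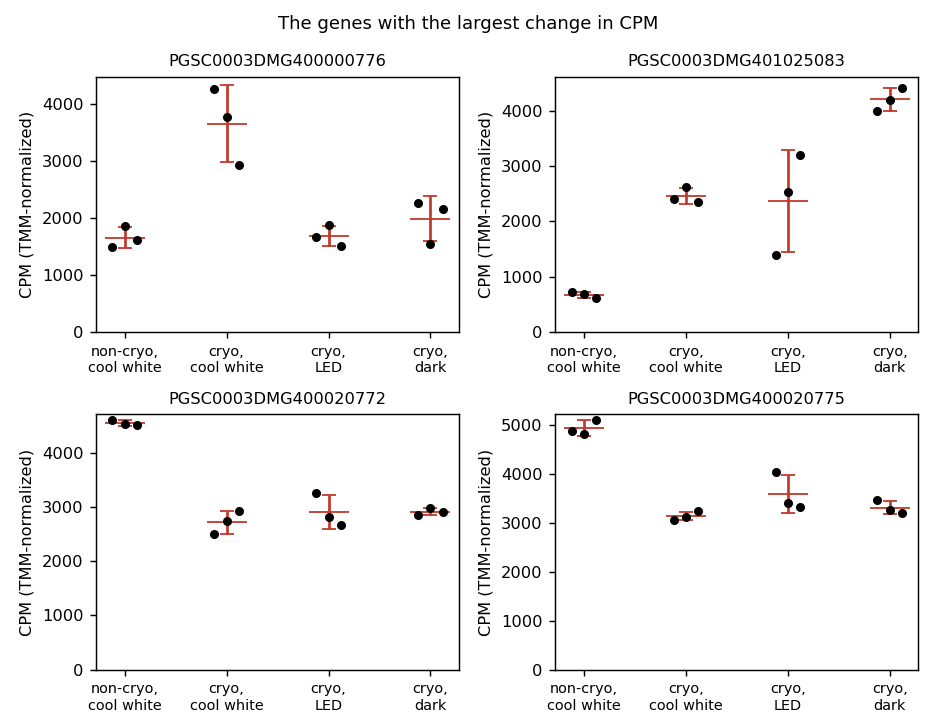
Points are the TMM-normalized CPM of the 3 libraries of each group for the 2 genes that gained and the 2 that lost the most CPM under cool white light, with the mean (red line) and SD (error bar). PGSC0003DMG400000776 is highest in cryopreserved tips under cool white light among the 4 groups, with 2939 to 4265 CPM. Its means are 1659 CPM without freezing, 1688 CPM under LEDs and 1992 CPM in darkness. PGSC0003DMG401025083 is higher in darkness than under cool white light. The genes were chosen on the cool white libraries shown.

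Some genes were read in one of the groups alone. With a read in all 3 cryopreserved libraries and none in the non-cryopreserved libraries there were 218 genes, and with the opposite pattern 64. Nearly all were close to the limit of detection, with a median of 7 reads over the 3 libraries in either set, and 23 of the 218 and 1 of the 64 passed the count filter and were called. With the libraries thinned to 6342324 reads each, the counts were 200 and 74 in place of 218 and 64. At full depth, asking for at least 5 reads in each library left 26 and 4 genes, and at least 10 reads left 10 and 1. The most abundant gene of the larger set averaged 11.5 CPM and that of the smaller set 2.79 CPM. Of the 218 genes, 103 were also read in all 3 LED libraries and 82 in all 3 dark libraries, while 17 and 33 had no read there. Of the 64, 23 had no read under LEDs and 34 none in darkness.

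Replicates of each group were close to each other compared with the distance between groups. The common biological coefficient of variation, the spread between replicates beyond counting error, was 12.1% in non-cryopreserved and 9.63% in cryopreserved tips when each group was fitted alone. Correlations of log2 CPM across tested genes were 0.975 to 0.982 and 0.982 to 0.986 within these groups and 0.890 to 0.926 between them. A principal component analysis of the 6 libraries placed 78.6% of the variance on the first component, which separated the groups, and 8.15% on the second. The LED libraries, which share the fitted spread, varied more, with a coefficient of variation of 18.2% and correlations of 0.964 to 0.976. In the dark libraries the coefficient was 11.1%.

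Among the cryopreserved libraries under cool white light, replicate 3 lay nearest to the non-cryopreserved tips. Its median log2 change from the non-cryopreserved mean was 0.81 over the genes called higher and -0.64 over those called lower, whereas replicates 1 and 2 had 0.95 and 0.96 over the higher and -0.77 and -0.74 over the lower genes. It differed from each non-cryopreserved library by fewer reads than the other replicates did. Without it, 5151 genes rose and 4060 fell.

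The response under cool white light can be set beside the responses of tips frozen in the same way and recovered in other light. Against the same non-cryopreserved libraries, LED tips had 27.3% of tested genes higher and 23.3% lower, and dark tips 27.7% higher and 27.6% lower. At least 2-fold decreases made up 6.86% under LEDs and 11.3% in darkness, against 6.12% under cool white light. Increases of that size are not given here for LEDs and darkness. All these shares are with TMM. Other scalings, which shifted the balance of directions under cool white light, were not tried for the LED and dark contrasts. The genes that rose under cool white light had a median log2 fold change of 0.93 there, 0.81 under LEDs and 0.85 in darkness, and the genes that fell had -0.73, -0.67 and -0.69. All 3 comparisons use the same control libraries, and the genes were chosen on the cool white libraries, so the likeness of these medians is not a separate result.

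Genes with large changes under cool white light were also looked up in the contrasts between lights. Of the 828 genes at least 4-fold higher than in non-cryopreserved tips, 14 differed between LEDs and cool white light and 95 between darkness and cool white light, where 1.44% and 15% of all tested genes did. Of the 220 genes at least 4-fold lower, 1 and 22 did. Whether these shares differ from those of all genes was not tested, and contrasts between lights share the cool white libraries on which the genes were chosen. Among the 94 genes with the largest increases, the median level was 6.16 CPM under cool white light, 4.13 CPM under LEDs and 4.66 CPM in darkness, against 0.127 CPM in tips that were never frozen.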

How the data were processed

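RNA was measured in 12 libraries, 3 biological replicates in each of 4 groups. Per the labels' protocols, RNA with an integrity number above 7.4 went into stranded libraries of polyadenylated RNA. Each sample has its own deposited file of raw counts of reads by gene, which the authors had not normalized. Tools listed in the submitters' processing notes are featureCounts 1.5.0, TopHat2 2.0.8b, DESeq2 1.14.1, Bowtie 1.1.1 and FastQC 1.11.2. For genome build, strand setting and reads that map to several places, the handling is not given in the sources used here. Values of overlapping or near-identical genes are uncertain for that reason. Identifiers were looked up among 32873 RefSeq genes of SolTub_3.0 and 0 matched, so no gene list, marker or sequence was used. No row lacked a gene identifier.

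The analysis used edgeR 4.0.16 under R 4.3.3. After filterByExpr (minimum count 10, minimum total 15), counts were scaled by TMM and fitted by glmQLFit over the 12 libraries by group (8 residual degrees of freedom, so that all groups share 1 estimate of the spread). Tests were two-sided (glmQLFTest, and glmTreat for a minimum change of 1.5-fold). SEs were computed from the F statistic, and 95% intervals from the SE and the t distribution. Principal components and correlations used log2 CPM with a prior count of 2. Thinning drew reads without replacement. Floors of 3 reads cover counting error only. Scripts were tested on simulated data. Named genes were the 2 called higher and 2 called lower, with libraries that did not overlap, with the largest difference in mean CPM. The comparison, the rule and the tests were chosen with earlier results of these data known. Alternatives were other scalings, filters and samples, DESeq2 1.42.0 and limma 3.58.1 voom.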

Additional observations from a re-analysis of the deposited data

Results flagged for a closer look

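For both named genes that rose, at least 1 contrast between recovery lights passed the edgeR quasi-likelihood test with Benjamini-Hochberg adjustment. PGSC0003DMG400000776 was lower under LEDs than under cool white light by a log2 difference of -1.12 (adjusted p 0.00678) and lower in darkness by -0.88 (adjusted p 0.00171). PGSC0003DMG401025083 was higher in darkness than under cool white light by a log2 difference of 0.77 (adjusted p 0.0205 by edgeR), and its LED contrast did not pass, with a log2 difference of -0.05 (adjusted p 0.935 by edgeR). Both genes were chosen for their gain in the cool white libraries that enter these contrasts, so lower values in the other lights are favoured by that choice. Groups of 3 libraries are too small to look for outlying samples.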

How the results depend on the processing

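The counts of called genes and of at least 2-fold changes stayed within 1.5 times their reported values under every alternative tried. Called genes ran from 8297 without cool white replicate 1 of the cryopreserved group to 10044 in the fit of only the 6 libraries, against 9823. The counts of changes past 1.5-fold and of genes bounded within 2-fold stayed within the same limit where they were taken. They were not taken with the DESeq2 Wald test or limma voom. The named genes were called with the same direction in all 16 alternatives each, with adjusted p of at most 0.000547. Scalings moved the median log2 fold change of all tested genes by -0.09 (upper quartile factors) to 0.05 (library size only). Deviations of same-numbered replicates from their group means correlated at -0.11, -0.06 and 0.12, and only replicate 3 correlated best with its own number. With 3 libraries in each group these values cannot show whether the numbers pair the samples. The main fit did not pair them. With the replicate number as a block (replicate block), 9539 genes were called, 5413 higher and 4126 lower. Restricted to genes at least 2-fold changed, the share of reads rose by 9.52 percentage points in higher genes and changed by -6.68 in lower genes, fewer by construction than over all called genes. Genes read in one group only numbered 26 and 4 with at least 5 reads per library, and leaving out a library gave 304 to 405 (405 without non-cryopreserved replicate 2, 335 without cryopreserved replicate 3) in place of 218 for cryopreserved tips and 93 to 128 in place of 64 for non-cryopreserved tips (128 and 103 without non-cryopreserved replicates 1 and 2, and 116, 99 and 120 without cryopreserved replicates 1, 2 and 3), since fewer libraries then have to hold a read or none. Thinning to the smallest total, added after the data were seen, gave 9448 called genes.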

Other observations

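The gene identifiers are numbered, and genes with following numbers changed a little alike. Across 10121 pairs of tested genes whose numbers differ by 1, the log2 fold changes between cryopreserved and non-cryopreserved tips under cool white light correlated at r = 0.117. The correlation was 0.051 for numbers that differ by 2, 0.028 for 5, 0.011 for 10, 0.002 for 100 and -0.002 for 1000. With only genes whose log2 CPM averaged 2 or more it was 0.106 for neighbours, and for the contrast of darkness with LEDs, which uses neither cool white group, 0.113. Genes whose identifiers share their last 6 digits, a grouping chosen after the files were seen, correlated at r = 0.535 over 1136 pairs. These correlations are across genes, which are not independent replicates, and all pairs share the same 6 libraries or, for darkness against LEDs, another 6. How reads that map to several places were counted is not known here, and its part in these values was not tested.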
